A study of Mus musculus with 14 samples.

Results

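The response of the Folr4 mutant uterus to folinic acid was examined on 7 of the 14 arrays of the series, chosen by their labels: 4 uteri of mutant females given folinic acid and 3 uteri of mutant females given saline. All mice were on the C57BL/6 background. The mutants were Folr4-/-, homozygous for a mutation of the gene now named Izumo1r, and the labels describe neither the allele nor the number of animals behind an array. Folinic acid was given intraperitoneally at 12.5 mg/kg in 2 injections, 10 and 3 days before mating. Uteri were collected on day 3.5 of gestation. Saline females are labelled as injected, without a schedule of their own. The other 7 arrays, wild-type uteri with saline (4) or folinic acid (3), entered the fit, where they share in the estimate of spread behind every p-value, and were used for the comparisons between genotypes.

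Folinic acid is a reduced folate that cells take up through folate carriers and convert into the one-carbon donors used to make purines, thymidylate and methyl groups. Folr4 belongs by sequence to the folate receptor family, but its protein is known as Juno, the egg's receptor for the sperm protein Izumo1, and as a surface marker of regulatory T cells. On day 3.5 the mouse uterus comes under rising progesterone: the luminal epithelium stops dividing and gives up its oestrogen-induced secretory programme, the epithelium signals to the stroma through Indian hedgehog, and the stroma proliferates ahead of embryo attachment.

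Each array measured 45037 probe sets other than controls as MAS5 signal, a linear intensity. The 14 arrays had the same trimmed mean of 500 and median signals of 129 to 157. Values were tested as log2 of signal with a floor of 1, so that a log2 difference of 1 is a 2-fold difference, over the 22519 probe sets at or above a mean signal of 134, which covered 11269 genes. Of 27 markers of uterus, epithelium, gland, stroma and muscle, 25 lay above that limit. The progesterone receptor Pgr (6174 to 17432 over the mutant arrays), Esr1 (9956 to 15450), Hoxa10 (2615 to 5899) and Hoxa11 (2323 to 5917) fitted the tissue label, and the gland proteases Prss28 and Prss29 lay below the limit.

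The targeted gene itself was dim. Izumo1r signal was 11.4, 70.2 and 7.0 in the saline mutants and 8.67, 14.8, 41.3 and 6.14 in the treated mutants, against 13.5 to 72.4 over the wild-type arrays. The groups overlapped, the probe set stood at percentile 23.0 of mean signal, and whether its target lies in the mutated part of the gene is not known, so it did not check the labels. Among the genes of folate entry that stood above the limit, the reduced folate carrier Slc19a1 differed by -0.20 ± 0.16 (log2, SE, limma) and the receptor Folr2, carried by macrophages, by 0.32 ± 0.42. A dimmer Slc19a1 probe set gave 0.34 ± 0.22, with groups that overlapped. Erdr1, an erythroid differentiation regulator, differed by -0.21 ± 0.35, and its groups overlapped.

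No probe set passed an adjusted p of 0.05 (limma, Benjamini-Hochberg over 22519 probe sets), a share of 0.0%, and the smallest adjusted p was 0.12. At an unadjusted p under 0.05 there were 2887 probe sets, or 12.8%, where 1126 would be expected by chance: 1367 were higher with folinic acid (6.07%) and 1520 lower (6.75%). Counted by gene, 720 of 11269 were higher (6.39%) and 782 lower (6.94%). For 560 genes (4.97%) all 4 treated uteri lay above all 3 saline uteri, and for 649 (5.76%) they all lay below. The labels call the samples biological replicates, p-values measure the spread between these samples, and their number limits the precision.

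One treated uterus stood apart from the other treated ones. In the first principal component of the 7 mutant arrays, which held 41.3% of the variance, the saline uteri scored 31.3, 40.7 and 5.24 and treated replicates 1, 3 and 4 scored -60.5, -23.3 and -33.3, while treated replicate 2 scored 39.8. In the second component (16.7%) it scored -36.2, on the side of treated replicate 4 (-24.2) and away from the saline uteri (11.0, 1.73 and 41.8), with treated replicates 1 and 3 at -3.61 and 9.44. The SD of its log2 difference over probe sets was 0.466, 0.441 and 0.608 against saline replicates 1, 2 and 3, and 0.749, 0.615 and 0.628 against treated replicates 1, 3 and 4. The labels give no reason for its place, and whether this uterus received the injections its label states is not known, so values without it describe the 3 other treated uteri. For 1563 genes the 3 other treated uteri all lay beyond the saline range on 1 side and replicate 2 did not. The same count for treated replicates 1, 3 and 4 was 305, 559 and 413.

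Leaving out treated replicate 2 gave 662 probe sets past the adjusted threshold (2.94%), 248 higher (1.1%) and 414 lower (1.84%) with folinic acid. All 662 had the same sign with the 7 arrays, and for 491 of them replicate 2 lay nearer the saline mean. Both counts follow in part from the selection: the fits share their other arrays, and none of the 662 passed with replicate 2 at full weight. Replicate 2 was singled out after its values were seen, so adjusted p-values without it, here and below, are descriptions. Leaving out any other single mutant array gave 0 probe sets, with 2103 to 2615 at an unadjusted p under 0.05, against 4387 without replicate 2. A fit that kept all arrays but weighted them by their agreement gave 103 probe sets, 17 higher and 86 lower, of which 102 were among the 662. The 3' to 5' signal ratios of replicate 2, a measure of RNA integrity, were 2.19 for actin, among those of the other mutant arrays (1.54 to 3.12), and 2.05 for Gapdh, the highest of the 7 (1.28 to 2.01 in the others).

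**Figure D1:**
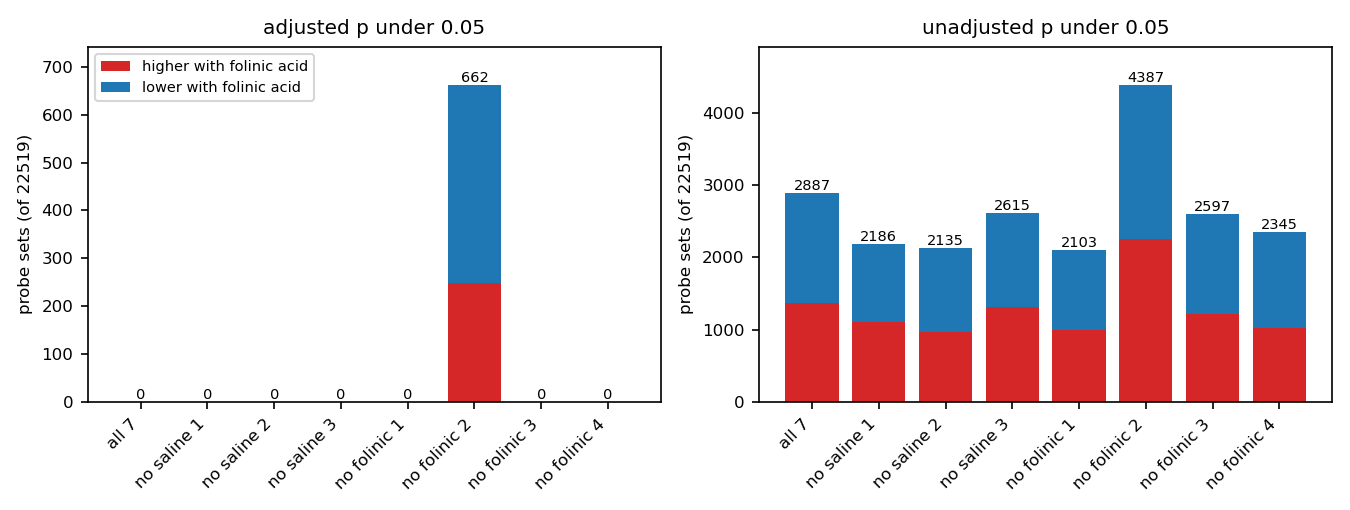
Probe sets past the threshold in the mutant comparison with all 7 mutant arrays and with each left out in turn, at an adjusted p under 0.05 (left) and an unadjusted p under 0.05 (right), stacked by direction. Without treated replicate 2 the counts were 662 and 4387; with every other omission the adjusted count was 0.

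The genes named first are the 15 in each direction with the smallest p, given as the leading genes of this comparison and not as passed calls. By that choice they lean to groups that do not overlap, and in all 30 the treated and saline uteri were apart. Without treated replicate 2, 29 of the 30 had an adjusted p under 0.05 (limma). Since the 30 were picked by small p on these same arrays, that count is no separate test of them. Of the 36 further probe sets for these genes, 29 had the same sign. Brighter probe sets whose groups overlapped gave smaller differences or the opposite sign for Psip1 (-0.26), Carhsp1 (-0.20), Gpt2 (-0.53), Etnk1 (-1.0), Ogt (0.24), Sgms1 (-0.20) and Ube2b (-0.04). For these genes the sizes given next are those of 1 probe set. On dimmer probe sets the groups were also apart for Gpt2 (-1.24 and -1.09) and for Etnk1 (-1.17). Other dimmer Etnk1 probe sets gave -1.01 and -0.56 with groups that overlapped.

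Among the leading genes that were lower, Alyref, an adaptor that hands spliced mRNA to the export machinery, had signals of 1446, 1256 and 1312 with saline and 661, 695, 519 and 718 with folinic acid. All treated uteri, replicate 2 included, were below all saline uteri, a difference of -1.05 ± 0.17 (log2, SE; limma adjusted p = 0.12). Gpt2, the mitochondrial alanine transaminase that links alanine to glutamate, gave 1339, 1278 and 1510 with saline and 355, 526, 655 and 530 with folinic acid. Its difference of -1.44 ± 0.25 was carried by every treated uterus. Psip1, a chromatin protein that reads histone methylation at transcribed genes, was at 1144, 1049 and 1024 against 299, 585, 552 and 351. On this probe set the groups were apart, with treated replicates 1 and 4 lowest (-1.32 ± 0.24), while on the brighter one they overlapped.

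Wee1, the kinase that holds back entry into mitosis, measured 949, 1053 and 771 with saline and 311, 576, 294 and 279 with folinic acid, a difference of -1.40 ± 0.27. Treated replicate 2 was the highest of its group and still under every saline uterus. Etnk1, which phosphorylates ethanolamine for membrane lipid synthesis, gave 1221, 1710 and 1740 against 508, 855, 634 and 564 (-1.29 ± 0.26). Acsl4, which activates long-chain polyunsaturated fatty acids, showed 533, 479 and 753 against 182, 252, 133 and 296, and the groups did not meet (-1.48 ± 0.31). Cdh16, a cadherin of epithelia of the kidney and reproductive tract, had the largest mean difference of the 15: 234, 345 and 535 with saline, 94.0, 87.9, 60.9 and 53.9 with folinic acid (-2.28 ± 0.47). A probe set of Atp2b2, a calcium pump of the plasma membrane, gave -1.50 ± 0.31. Carhsp1, Plekhj1 and Sumf2 differed by -1.07, -0.82 and -1.22. A dimmer Sumf2 probe set gave -0.13 ± 0.32, and its groups overlapped.

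The other 4 leading genes that were lower were among the brightest on the array: Col3a1, a fibrillar collagen, and the ribosomal protein genes Rplp0, Rps10 and Rpl7a. Col3a1 measured 48622, 60459 and 53746 with saline and 32550, 37654, 35748 and 34161 with folinic acid. That is -0.63 ± 0.12 as deposited, but -0.00 after quantile normalization, and Rplp0, Rps10 and Rpl7a moved from -0.73, -0.66 and -0.57 to -0.13, -0.28 and -0.02. The signal range of the arrays is described with the ribosomal genes.

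On the higher side, Sting1, the adaptor through which cytosolic DNA induces interferon, had signals of 305, 312 and 329 with saline and 1109, 535, 649 and 847 with folinic acid. The saline uteri were tightly grouped, every treated uterus was above them, and the difference was 1.26 ± 0.24 (limma adjusted p = 0.12). Another Sting1 probe set read 386, 262 and 443 against 987, 364, 710 and 829 (0.93 ± 0.35). There treated replicate 2 lay inside the saline range. Ccr2, the receptor that brings monocytes into tissue, read 963, 699 and 878 against 2448, 2243, 1342 and 2586. On this probe set treated replicate 2 was as high as replicates 1 and 4 (1.32 ± 0.29). On the dimmer Ccr2 probe sets the groups were also apart, but replicate 2 read 126 and 244, just above the saline uteri. Ogt, which attaches GlcNAc to intracellular proteins, showed 761, 1094 and 1111 against 1992, 1424, 2214 and 3191 (1.12 ± 0.23).

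Fgfrl1, a receptor that binds fibroblast growth factors without a kinase domain, was at 744, 834 and 810 with saline and 1307, 1620, 1386 and 2118 with folinic acid (0.99 ± 0.18). Treated replicate 2 had the second highest value. A dimmer Fgfrl1 probe set gave 0.43 ± 0.21 with groups that overlapped. Pik3cd, the leukocyte form of the phosphoinositide 3-kinase catalytic subunit, was highest in replicate 2: 576, 746 and 643 against 1251, 1576, 1215 and 1191 (1.0 ± 0.22). That holds for 1 probe set: on a dimmer one replicate 2 was the lowest of all mutant uteri, at 267, and the groups overlapped (0.40 ± 0.29). The myeloid metalloprotease Adam8 gave 1.38 ± 0.31, the sphingomyelin synthase Sgms1 1.06 ± 0.22 on its dimmer probe set and -0.20 ± 0.17 on the brighter, and the ubiquitin ligase Mylip, which degrades the LDL receptor, 0.98 ± 0.20. Kdm2b, a histone demethylase that binds CpG islands, was the gene of the 30 that missed the threshold without replicate 2 (0.65 ± 0.15 with all arrays). Another Kdm2b probe set gave -0.001 ± 0.15, and its groups overlapped. The remaining genes, Arhgap27, Zfp217, Gdpd3, Zfp560, Ube2b and Ints6l, differed by 0.59 to 1.48. A dimmer Ints6l probe set gave 0.16 ± 0.23, and its groups overlapped.

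Among genes whose groups did not overlap, those with the largest mean log2 differences included Slc5a11 and Pla2g10 on the lower side and Cxcr6 and Arg1 on the higher side. Slc5a11, a sodium-coupled inositol transporter, had signals of 499, 314 and 299 with saline and 3.28, 273, 247 and 7.43 with folinic acid. Treated replicates 2 and 3 were just under the lowest saline uterus and replicates 1 and 4 near the floor (-3.33 ± 1.30). Pla2g10, a secreted phospholipase, was low in the same uteri, 2343, 2583 and 1723 against 129, 1305, 561 and 162 (-2.64 ± 0.68), and Cyp4x1, a cytochrome P450, gave -1.88 ± 0.51. On the higher side, Cxcr6, a chemokine receptor of tissue T cells and NK cells, read 197, 112 and 124 against 2009, 230, 689 and 521 (2.19 ± 0.66). A dimmer Cxcr6 probe set gave 2.36 ± 0.76, but there treated replicate 2, at 147, lay inside the saline range (79.1 to 188). Arg1, the arginase of alternatively activated macrophages, differed by 2.09 ± 0.55, Bcl11b, a T lineage transcription factor, by 1.89 ± 0.48, and the lymphotoxin gene Ltb by 1.86 ± 0.58.

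Gene lists for 36 pathways and cell types, holding 1101 distinct genes of which 834 were measured, are described by their counts and medians beside the same over all 11269 genes. Over all genes the median log2 difference was 0.00, with 5653 higher and 5616 lower. Lists were not tested as sets. Whole uterus was measured, so fewer cells of a type and less RNA per cell cannot be told apart.

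**Figure D2:**
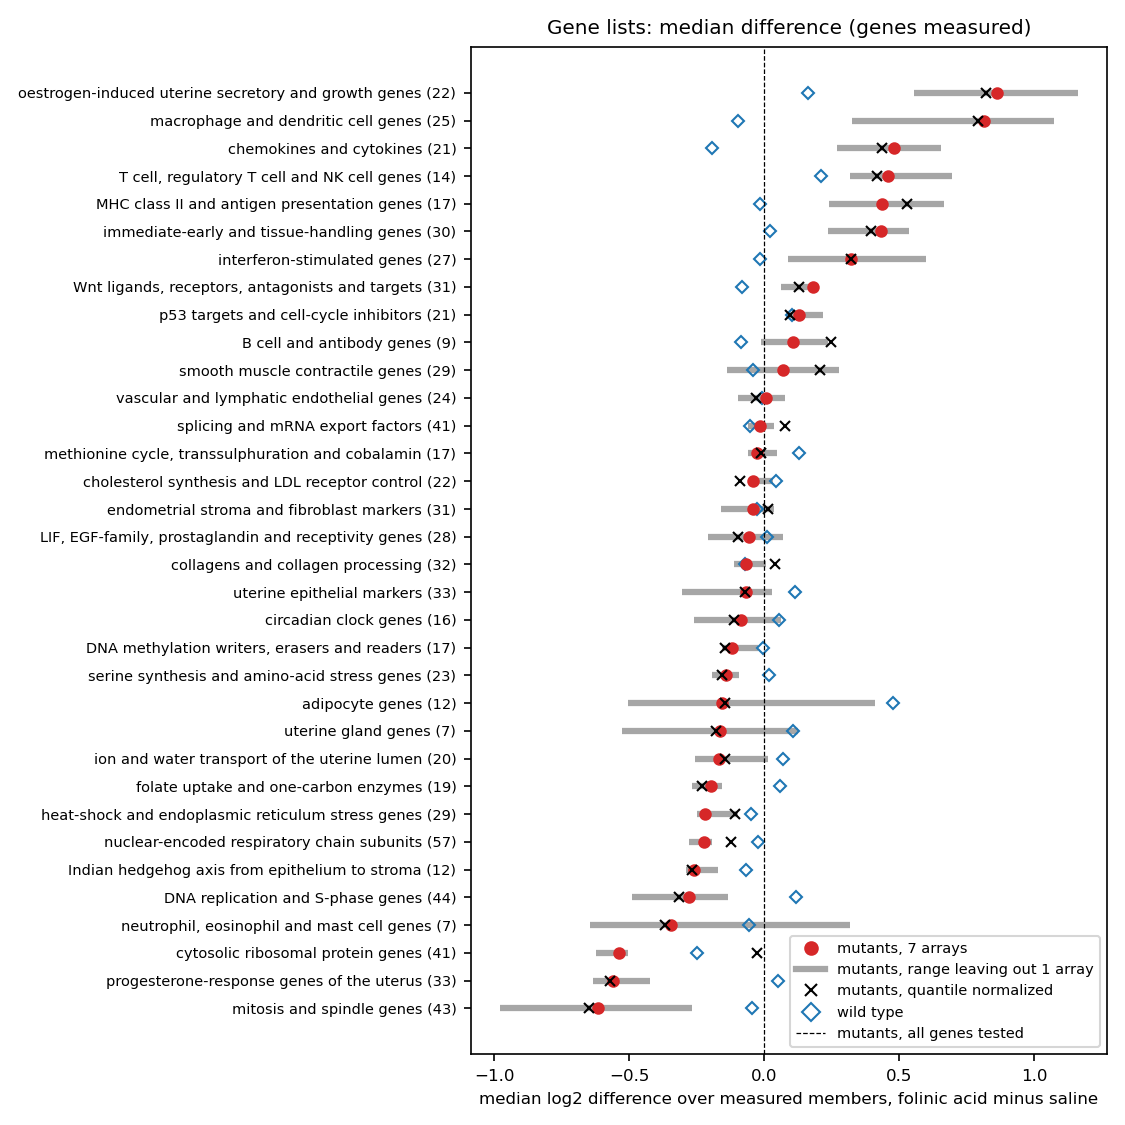
Median log2 difference (folinic acid minus saline) over the measured genes of each list of 7 or more, with the number of genes in brackets; circles are the mutants, grey bars the range over leaving out each mutant array, crosses the mutants after quantile normalization, diamonds the wild type, and the dashed line all genes. Oestrogen-induced and macrophage genes lie highest (0.86 and 0.82), mitosis and progesterone-response genes lowest (-0.62 and -0.56), and the ribosomal median moves from -0.54 to -0.02 with quantile normalization.

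Genes of folate uptake and one-carbon metabolism leaned lower. Of 19 measured, 15 were lower and 4 higher with folinic acid, the median was -0.20 (-0.27 to -0.16 on leaving out single arrays), and 4 were lower at an unadjusted p under 0.05, or 21.1% against 6.94% of all genes. None was higher at that level. The proton-coupled folate transporter Slc46a1 measured 298, 355 and 227 with saline and 121, 206, 214 and 156 with folinic acid. The groups were apart by a small margin (-0.76 ± 0.25; limma adjusted p = 0.25). Mthfd1l, the mitochondrial synthetase that releases formate, was 448, 395 and 479 against 256, 300, 376 and 283, also without overlap (-0.55 ± 0.19). Gcsh, the carrier protein of glycine cleavage, differed by -0.43 ± 0.15. Mthfd2, the mitochondrial methylene-tetrahydrofolate dehydrogenase, had 1344, 1656 and 576 with saline and 261, 1167, 473 and 141 with folinic acid. Its groups overlapped because of treated replicate 2 and saline replicate 3 (-1.52 ± 0.60), and it was the member with an adjusted p under 0.05 without replicate 2 (-2.07).

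Mthfs, the enzyme that acts on folinic acid itself, and Folr1 lay below the signal limit. Mthfs read 41.2, 69.8 and 52.2 with saline and 90.6, 56.2, 75.4 and 34.4 with folinic acid, and Folr1 59.1 to 113 against 65.9 to 131, so both overlapped. In the methionine cycle and cobalamin list the median of 17 genes was -0.03 and 3 were lower at an unadjusted p under 0.05 (17.6% against 6.94% of all genes). Those were methionine synthase Mtr (387, 367 and 573 against 202, 231, 336 and 263; -0.77 ± 0.28), Sardh, which oxidises sarcosine (-0.49 ± 0.18), and Gamt, which uses methyl groups to make creatine (-0.75 ± 0.28). All 3 had groups that did not overlap, among 4 such genes of the list on the lower side (23.5% against 5.76% of all genes). Serine synthesis and amino-acid stress genes had a median of -0.14 over 23 genes, with 1 higher and 2 lower at that level (4.35% and 8.7%, near the 6.39% and 6.94% of all genes): Slc1a5, a glutamine transporter (0.55 ± 0.20), and the aminoacyl-tRNA synthetases Sars (-0.44 ± 0.15) and Eprs (-0.47 ± 0.18). Their dimmer probe sets overlapped, at -0.03 for Slc1a5, -0.22 for Sars and -0.25, -0.09 and -0.07 for Eprs.

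Among 17 writers, erasers and readers of DNA methylation, 10 were lower and 7 higher. The maintenance methyltransferase Dnmt1 gave 1517, 1215 and 1511 with saline and 961, 1009, 1152 and 724 with folinic acid, apart in every uterus (-0.57 ± 0.16; limma adjusted p = 0.18). Uhrf1, which brings Dnmt1 to replicated DNA, was 615, 376 and 830 against 424, 153, 422 and 313 and overlapped (-0.92 ± 0.33). The methyl-CpG domain genes went opposite ways: Mbd3, of the NuRD complex, differed by -0.67 ± 0.19 and Mbd2 by 0.46 ± 0.18. A dimmer Mbd2 probe set gave 0.03 ± 0.22, and its groups overlapped. Dnmt1 and Uhrf1 are also made mainly in dividing cells, whose genes are described next.

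Mitosis and spindle genes were lower almost throughout: 42 of 43 measured, with a median of -0.62. There were 12 lower at an unadjusted p under 0.05 (27.9% against 6.94% of all genes) and 0 higher. The list level, the mean of its genes on each array relative to the saline mean, was 0.13, -0.73 and 0.60 in the saline uteri and -0.14, -1.16, -0.48 and -0.55 in the treated uteri. The groups overlapped, since saline replicate 2 was lower than 3 of the treated uteri. Without that array the median was -0.98, and without saline replicate 3 it was -0.27.

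Ncaph, a condensin subunit, showed 1084, 826 and 1152 with saline and 625, 567, 658 and 470 with folinic acid, with no overlap (-0.81 ± 0.20; limma adjusted p = 0.14). Spc25 and Nuf2, subunits of the kinetochore's Ndc80 complex, differed by -1.13 ± 0.30 and -1.28 ± 0.37. For Spc25 the uteri read 743, 478 and 1301 against 315, 329, 357 and 423. Ube2c, the ubiquitin-conjugating enzyme of the anaphase-promoting complex, was 1308, 478 and 1766 against 614, 246, 377 and 402, where saline replicate 2 lay among the treated uteri (-1.41 ± 0.40).

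DNA replication and S-phase genes followed with smaller differences: 35 of 44 were lower, the median was -0.28 (-0.49 to -0.13 on leaving out single arrays), and 6 were lower (13.6% against 6.94% of all genes) and 1 higher (2.27% against 6.39%) at an unadjusted p under 0.05. Ccne2, the cyclin of the entry into S phase, gave 177, 182 and 216 with saline and 118, 79.1, 88.7 and 79.2 with folinic acid. Every treated uterus was under the saline ones (-1.09 ± 0.26; limma adjusted p = 0.13). Pole, the catalytic subunit of DNA polymerase epsilon, differed by -1.24 ± 0.39, thymidine kinase Tk1 by -1.28 ± 0.41, and Mcm5, of the replicative helicase, by -0.57 ± 0.23 (2289, 1057 and 1646 against 1160, 1069, 1150 and 918, overlapping). Of 21 measured p53 targets and cell-cycle inhibitors the median was 0.13, with 2 higher and 2 lower at that level (9.52% each, against 6.39% and 6.94% of all genes).

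Cell-cycle promoters are known for a CCAAT box and for the element TTTGAA in genes of mitosis, and for E2F sites such as TTTCGCGC and TTTGGCGC in genes of S phase. Since members of both lists were lower together, these letters were looked for on both strands in the RefSeq promoters of GRCm38.p6, from 250 bases before to 50 bases after each start. CCAAT was found in 31 of 40 promoters of 37 mitosis genes, 22 of 40 promoters of 35 S-phase genes and 37.4% of all 32851 promoters. TTTGAA was in 30 of the 40 mitosis promoters, 6 of the 40 S-phase promoters and 17.9% of all. Either E2F word was in 2 of the 40 mitosis promoters, 11 of the 40 S-phase promoters and 0.813% of all. The matches describe these windows and not binding. They are shown for those of the 4 members with the smallest p in each list whose promoter held a match, with the matched letters in capitals, either strand, and overlapping matches run together. Ncaph, Nuf2 and Tk1 held none in theirs, and Ccne2 and Pole were not matched to a promoter.
Spc25, chr2:69206164-69206463, minus strand: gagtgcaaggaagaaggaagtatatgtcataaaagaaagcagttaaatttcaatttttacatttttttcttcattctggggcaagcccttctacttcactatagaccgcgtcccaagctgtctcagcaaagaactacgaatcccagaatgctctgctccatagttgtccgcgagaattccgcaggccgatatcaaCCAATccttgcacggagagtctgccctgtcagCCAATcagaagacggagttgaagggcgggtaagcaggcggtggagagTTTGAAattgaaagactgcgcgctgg
Ube2c, chr2:164769679-164769978, plus strand: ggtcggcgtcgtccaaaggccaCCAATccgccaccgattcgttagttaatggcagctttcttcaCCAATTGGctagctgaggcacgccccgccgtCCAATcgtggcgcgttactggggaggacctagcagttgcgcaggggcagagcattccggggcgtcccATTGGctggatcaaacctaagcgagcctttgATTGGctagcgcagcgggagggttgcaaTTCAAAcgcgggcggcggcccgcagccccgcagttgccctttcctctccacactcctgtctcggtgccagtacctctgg
Mcm5, chr8:75109259-75109558, plus strand: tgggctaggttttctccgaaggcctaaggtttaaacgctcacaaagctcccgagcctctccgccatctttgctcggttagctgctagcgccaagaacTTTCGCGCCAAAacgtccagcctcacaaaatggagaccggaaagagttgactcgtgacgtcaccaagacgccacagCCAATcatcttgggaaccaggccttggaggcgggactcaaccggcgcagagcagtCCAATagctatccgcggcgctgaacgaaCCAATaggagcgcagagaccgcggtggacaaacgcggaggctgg
The window of Spc25 held 2 CCAAT and 1 TTTGAA, that of Ube2c 6 CCAAT counted on both strands and 1 TTTGAA, and that of Mcm5 3 CCAAT and 2 E2F words that overlap on opposite strands.

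Progesterone-response genes were lower. Of 33 measured, 26 were lower and 7 higher, and the median was -0.56 (-0.63 to -0.42 on leaving out single arrays). At an unadjusted p under 0.05, 12 were lower (36.4% against 6.94% of all genes) and 2 higher (6.06% against 6.39%). The list level was -0.08, 0.14 and -0.06 in the saline uteri and -0.70, -0.33, -0.32 and -1.10 in the treated uteri, so the groups did not overlap. Treated replicate 2 lay on the treated side for this list as a whole.

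Lrp2, the endocytic receptor megalin that takes up vitamin-carrier complexes at the luminal surface, read 4079, 4407 and 3102 with saline and 106, 4142, 631 and 67.3 with folinic acid. Replicates 1 and 4 were lower by more than an order of magnitude and replicate 2 was at the saline level (-3.37 ± 0.99; limma adjusted p = 0.20, and 0.016 without replicate 2). Sgk1, a kinase of epithelial sodium transport, was 5741, 5131 and 5462 against 2935, 1872, 4723 and 2756, with replicate 2 lowest (-0.90 ± 0.28). Tsc22d3, a glucocorticoid- and progesterone-induced leucine zipper gene, differed by -0.77 ± 0.26 without overlap. Its dimmer probe sets gave -0.61 ± 0.30 and 0.11 ± 0.35, with groups that overlapped. Ihh, the hedgehog ligand by which the epithelium signals to the stroma, gave 1035, 1149 and 707 against 115, 606, 723 and 179, a low level in replicates 1 and 4 (-1.61 ± 0.56). The 12 measured genes of the Indian hedgehog axis had a median of -0.26, with Ihh the member lower at an unadjusted p under 0.05 (8.33% against 6.94% of all genes).

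Gland and ion transport genes held the same pattern in part. Of 7 measured gland genes, 3 were lower at an unadjusted p under 0.05 (42.9% against 6.94% of all genes): Calb1, Fxyd4 and Ihh, the last already given above. In none of the 7 were the groups apart (0.0% against 5.76% of all genes on the lower side). Calb1, the cytosolic calcium buffer calbindin, was 29458, 25756 and 19580 with saline and 2550, 19794, 8365 and 1336 with folinic acid. Replicate 2 lay inside the saline range, replicate 3 was intermediate, and the difference was -2.33 ± 0.63 (limma adjusted p = 0.16, and 0.016 without replicate 2). Fxyd4, a regulator of the sodium pump, read 21381, 24492 and 11882 against 2030, 23760, 5280 and 2277 (-1.91 ± 0.64). The gland transcription factor Foxa2 showed the opposite sign without passing (284, 154 and 146 against 294, 200, 483 and 213; 0.59 ± 0.35).

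In the list of ion and water transport 6 of 20 measured genes were lower at that level (30.0% against 6.94%) and 2 were higher (10.0% against 6.39%), and the list level did not overlap between groups (-0.08 to 0.06 with saline, -0.56 to -0.15 with folinic acid). Aqp11, an intracellular aquaporin, gave 801, 761 and 658 with saline and 66.8, 571, 246 and 93.8 with folinic acid. Each treated uterus was lower, replicate 2 by the least (-2.10 ± 0.59). A dimmer Aqp11 probe set read 324, 357 and 241 against 132, 300, 250 and 202, and its groups overlapped (-0.52 ± 0.31). Atp1b1, the beta subunit of the sodium pump, was 12118, 14242 and 8712 against 2430, 10208, 4188 and 1829 (-1.63 ± 0.46). Car12, a membrane carbonic anhydrase, went the other way, 434, 316 and 466 against 635, 731, 761 and 1568, and did not overlap (1.11 ± 0.37).

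General epithelial markers did not follow: over 33 measured the median was -0.07, with 12 higher and 21 lower. The summed signal of these 33 genes was 76451 to 84184 in the saline uteri and 60572 to 95557 in the treated uteri. There were 5 lower (15.2% against 6.94% of all genes) and 2 higher (6.06% against 6.39%) at an unadjusted p under 0.05. Krt19, a keratin of simple epithelia, differed by -0.77 ± 0.25 and the tight junction gene Cldn3 by -1.24 ± 0.42. The membrane protease Tmprss2 differed by 0.78 ± 0.26 on its brightest probe set, but by -0.10 and -0.03 on dimmer ones, where the groups overlapped.

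Oestrogen-induced secretory and growth genes were higher. Of 22 measured, 19 were higher and 3 lower, and the median was 0.86 (0.56 to 1.16 on leaving out single arrays). At an unadjusted p under 0.05, 6 were higher (27.3% against 6.39% of all genes) and 2 lower (9.09% against 6.94%). Their level was 0.27, -0.55 and 0.28 in the saline uteri and 1.29, -0.32, 0.90 and 1.61 in the treated uteri. Treated replicate 2 was thus inside the saline range. Lcn2, a secreted siderophore-binding lipocalin, read 1150, 215 and 1856 with saline and 21705, 763, 6087 and 13376 with folinic acid. Treated replicates 1, 3 and 4 were above all saline uteri and replicate 2 was not (2.97 ± 1.08; limma adjusted p = 0.28, and 0.037 without replicate 2).

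Padi1, a peptidylarginine deiminase of epithelium, was 363, 254 and 625 against 629, 807, 998 and 4128 and just cleared the saline range (1.64 ± 0.59). Sprr2d, a cornified envelope protein, gave 222, 45.3 and 54.3 against 1270, 91.7, 593 and 348 (2.27 ± 0.90). The oestrogen receptor gene Esr1 itself was 12815, 15450 and 14830 with saline and 9956, 11958, 11734 and 12627 with folinic acid. All treated uteri were lower, by -0.31 ± 0.12 as deposited and -0.13 after quantile normalization. A dimmer Esr1 probe set gave 0.01 ± 0.15, and its groups overlapped.

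**Figure D3:**
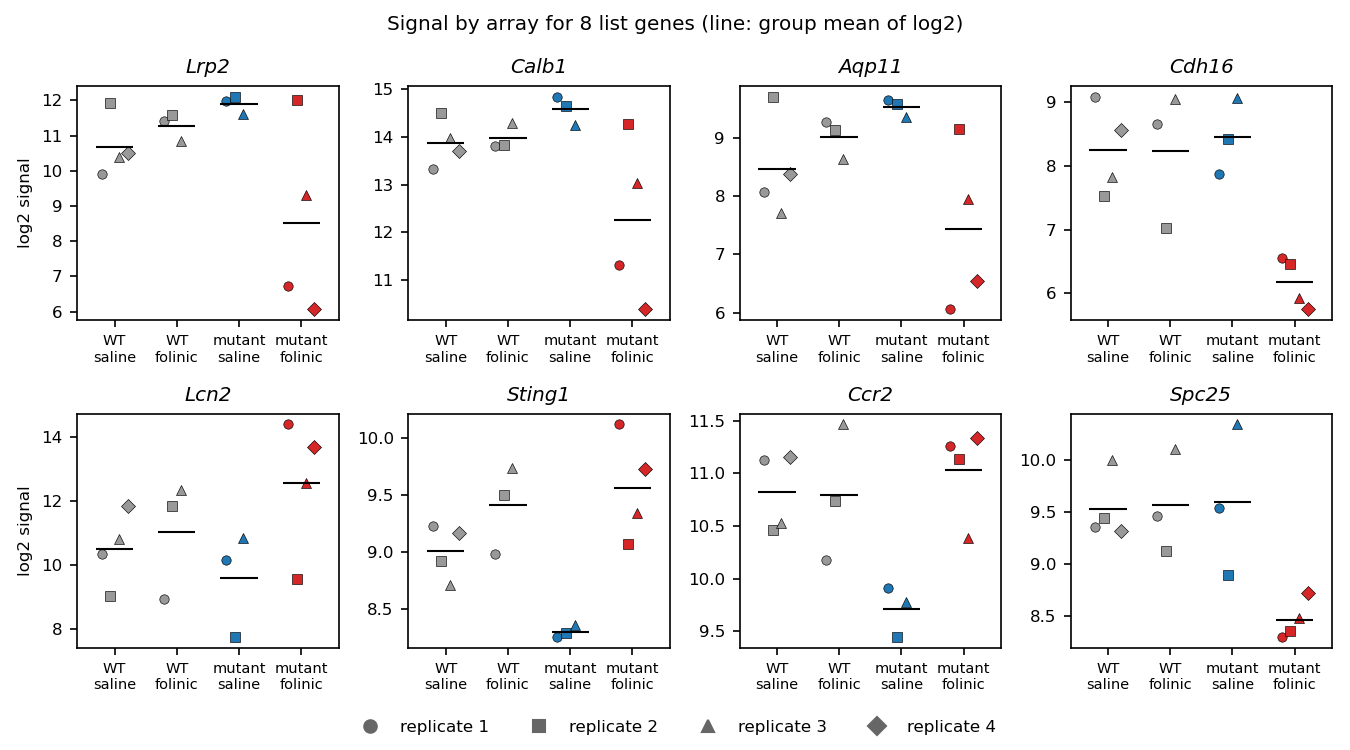
log2 signal of 8 named genes on every array, by group, with wild type in grey, saline mutants in blue, treated mutants in red, the marker shape giving the replicate number within its group and a line at the group mean. Lrp2 and Calb1 lie lowest in treated replicates 1 and 4 and at or near the saline level in replicate 2, Lcn2 shows the reverse, and Aqp11, Cdh16, Sting1, Ccr2 and Spc25 have all 4 treated uteri beyond the saline range. Each gene is drawn from 1 probe set, and on another Aqp11 and another Sting1 probe set the groups overlapped.

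Among the ligands, receptors and lipid mediators around implantation the counts were mixed, 12 higher and 16 lower of 28, with a median of -0.06. Pla2g4a, the phospholipase that releases arachidonic acid for prostaglandins, was 4434, 4643 and 6284 with saline and 1205, 3269, 2354 and 2552 with folinic acid, lower in every treated uterus (-1.20 ± 0.30; limma adjusted p = 0.15). The prostaglandin E2 receptor Ptger2 read 1396, 1281 and 1290 against 588, 1349, 638 and 542, where only replicate 2 matched the saline level (-0.87 ± 0.32). Socs3, the feedback inhibitor of LIF and IL-6 signalling, was 322, 353 and 248 against 2336, 838, 546 and 285 (1.29 ± 0.48). In the Wnt list 4 of 31 genes were higher (12.9% against 6.39% of all genes) and 3 lower (9.68% against 6.94%) at an unadjusted p under 0.05. The ligand Wnt11 gave 703, 685 and 682 against 99.3, 939, 193 and 177 (-1.54 ± 0.55) and Wnt4 231, 164 and 442 against 481, 317, 503 and 1053 (1.06 ± 0.42). Lef1, a nuclear partner of beta-catenin, differed by -1.04 ± 0.38 and the co-receptor Lrp6 by 0.45 ± 0.18. A dimmer Lrp6 probe set gave 0.06 ± 0.26 with groups that overlapped.

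Macrophage and dendritic cell genes were all higher: 25 of 25 measured of 28 listed, with a median of 0.82. At an unadjusted p under 0.05, 9 were higher (36.0% against 6.39% of all genes), but in 2 of the 25 the groups were apart (8.0% against 4.97%). Their level was -0.45, 0.01 and 0.44 in the saline uteri and 2.11, -0.20, 0.56 and 0.72 in the treated uteri, and their summed signal ran from 20939 to 35499 with saline and from 22642 to 118769 with folinic acid. Treated replicate 1 was far above all others and replicate 2 inside the saline range. The median was 0.33 without replicate 1 and 1.07 without replicate 2, so its size turned on single uteri.

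Itgax, an integrin of dendritic cells, measured 288, 417 and 439 with saline and 1105, 425, 655 and 807 with folinic acid (0.91 ± 0.32). Cd53, a leukocyte tetraspanin, gave 360, 353 and 593 against 2465, 398, 999 and 686 (1.10 ± 0.46), and Cx3cr1, the fractalkine receptor, 89.6, 185 and 235 against 1268, 176, 318 and 262 (1.23 ± 0.52). In each of the 3, replicate 1 was the highest uterus and replicate 2 lay within the saline values.

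In the lists of antigen presentation, chemokines, T and NK cells and interferon-stimulated genes, treated replicate 1 had the highest level of the 7 uteri and replicate 2 the lowest of the treated uteri. All 17 measured MHC class II and antigen presentation genes were higher, with a median of 0.44, 2 of them at an unadjusted p under 0.05 (11.8% against 6.39% of all genes). H2-Eb1, a class II beta chain, was 2090, 2900 and 3285 with saline and 15078, 2374, 5697 and 5370 with folinic acid (1.09 ± 0.50). Chemokines and cytokines were higher in 19 of 21 (median 0.48, 4 or 19.0% at that level), among them Ccl5, which attracts T cells, at 214, 337 and 536 against 4186, 426, 1154 and 865 (1.77 ± 0.63) and Il1b at 89.7, 66.9 and 127 against 2080, 119, 414 and 126 (1.88 ± 0.73). T cell, regulatory T cell and NK cell genes were higher in 13 of the 14 measured of 32 listed (median 0.46), with a summed signal of 4196 to 5304 with saline and 3983 to 10092 with folinic acid. Eomes, a transcription factor of NK and T cells, did not overlap and was highest in replicate 4 (215, 240 and 162 against 340, 256, 324 and 770; 0.92 ± 0.30).

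Interferon-stimulated genes were higher in 24 of 27 (median 0.32, 0.09 without treated replicate 1), with 3 higher (11.1% against 6.39% of all genes) and 1 lower (3.7% against 6.94%) at an unadjusted p under 0.05. Besides Sting1, Samhd1, which degrades nucleotides, and the transcription factor Irf1 did not overlap on their brightest probe sets and differed by 0.73 ± 0.28 and 0.59 ± 0.26. Another Samhd1 probe set was also apart (1.30 ± 0.40), while others overlapped (0.80, 0.69 and 0.63). As given above, another Sting1 probe set overlapped. Xaf1, an apoptosis-promoting interferon target, was lower in every treated uterus, 1744, 2067 and 2369 against 1130, 1346, 837 and 1231 (-0.87 ± 0.20). Neutrophil, eosinophil and mast cell genes, 7 measured of 24, had a median of -0.34 that ran from -0.64 to 0.32 on leaving out single arrays, and a level of 1.03, 0.26, -0.49 and -1.01 in the treated uteri. B cell and antibody genes, 9 measured of 20, had a median of 0.11.

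Immediate-early and tissue-handling genes, which respond within minutes to dissection as well as to hormones, were higher in 24 of 30. The median was 0.43 (0.24 to 0.54 on leaving out single arrays), with 9 higher (30.0% against 6.39% of all genes) and 1 lower (3.33% against 6.94%) at an unadjusted p under 0.05. Their level was -0.12, 0.04 and 0.09 with saline and 0.98, 0.19, 0.10 and 0.31 with folinic acid, without overlap. Klf6 read 1150, 1352 and 1293 against 2644, 1597, 1709 and 1997 (0.63 ± 0.17), and Fos 437, 522 and 875 against 8605, 705, 963 and 1801 (1.62 ± 0.61), again with replicate 1 highest. The ratio of 3' to 5' actin signal was 3.00, 3.01 and 2.11 with saline and 1.54, 2.19, 3.12 and 1.74 with folinic acid. The lowest ratios were those of treated replicates 1 and 4, and the part of RNA quality and dissection in these differences was not tested.

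**Figure D4:**
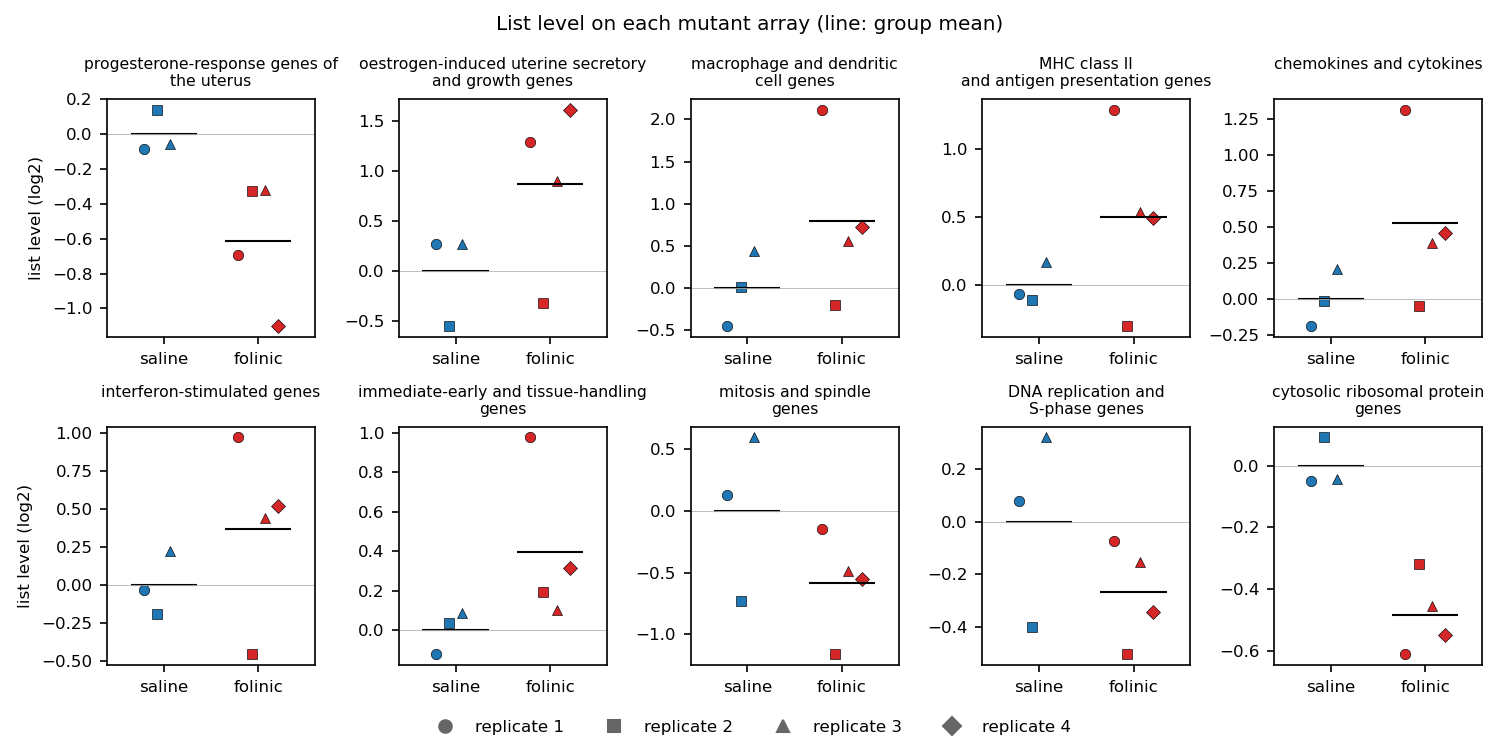
Level of 10 gene lists on each of the 7 mutant arrays, the mean log2 signal of the measured genes relative to the mean of the saline uteri, with the marker shape giving the replicate number within its group and a line at the group mean. Progesterone-response, immediate-early and ribosomal levels do not overlap between groups; in the oestrogen-induced, macrophage, MHC class II and interferon panels treated replicate 2 lies below the saline mean and replicates 1, 3 and 4 above it.

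Cytosolic ribosomal protein genes were lower in 39 of the 41 measured, with a median of -0.54, and 33 were lower at an unadjusted p under 0.05 (80.5% against 6.94% of all genes). After quantile normalization, which gives every array the same distribution of signals, the median was -0.02 and 3 were lower at that level. Over all genes, 738 of 11257 were lower at that level after it. These genes sit at the top of the signal range, where the arrays differed: the highest signal was 78576 to 90860 on the saline arrays and 47513 to 59816 on the treated arrays. Of the brightest 100 probe sets, all 100 were lower at an unadjusted p under 0.05, with a median of -0.63 as deposited and -0.02 after quantile normalization. The wild-type median for them was -0.31. A lower RNA level and a lower top of the signal scale cannot be told apart here, so the ribosomal and collagen differences describe the deposited scale.

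Nuclear-encoded respiratory chain subunits, also bright, were lower in 52 of 57 with a median of -0.22, and -0.12 after quantile normalization. As deposited, 12 were lower at an unadjusted p under 0.05 (21.1% against 6.94% of all genes), and 2 after it (against 738 of 11257 genes). Uqcrb, a subunit of complex III, gave 33769, 38552 and 31705 with saline and 24096, 25387, 28676 and 21586 with folinic acid, -0.48 ± 0.12 as deposited and -0.01 after quantile normalization. A dimmer Uqcrb probe set gave 0.03 ± 0.15 as deposited, and its groups overlapped. Cox5b, of complex IV, was -0.35 ± 0.10 as deposited and -0.17 after it.

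**Figure D5:**
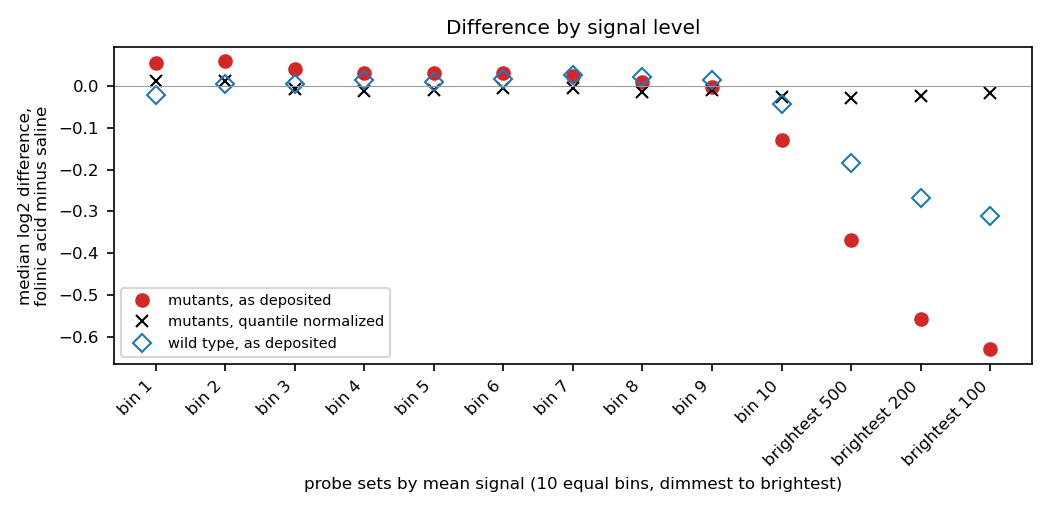
Median log2 difference (folinic acid minus saline) for the 22519 probe sets in 10 equal bins of mean signal, from dimmest to brightest, and for the brightest 500, 200 and 100; circles are the mutants as deposited, crosses the mutants after quantile normalization, diamonds the wild type. The mutant median is 0.06 in the dimmest bin, -0.13 in the brightest bin and -0.63 in the brightest 100 probe sets.

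Splicing and mRNA export factors were split, 20 higher and 21 lower of 41, with 5 higher (12.2% against 6.39% of all genes) and 6 lower (14.6% against 6.94%) at an unadjusted p under 0.05. Beside Alyref, the splicing repressor Hnrnpl was 471, 766 and 668 with saline and 395, 280, 316 and 454 with folinic acid (-0.81 ± 0.22). Clk1, a kinase of SR proteins, read 3626, 4645 and 3001 against 5379, 5272, 6014 and 6335 (0.63 ± 0.17), and the SR protein Srsf5 was 6564, 8529 and 8383 against 11186, 10292, 11241 and 11183 (0.50 ± 0.14). In all of these, treated replicate 2 lay with its own group.

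Lists of structural cells had medians near 0. Endometrial stroma gave -0.04 over 31 genes, vascular and lymphatic endothelium 0.01 over 24, collagens -0.07 over 32, and smooth muscle 0.07 over 29 (-0.14 to 0.28 on leaving out single arrays). Cholesterol synthesis was at -0.04 over 22 genes, circadian clock genes at -0.08 over 16 and heat-shock and endoplasmic reticulum stress genes at -0.22 over 29. Adipocyte genes had a median of -0.16 over 12 that ran from -0.50 to 0.41 on leaving out single arrays. Of 10 blood genes 1 was measured, and of 18 genes of ovary, oviduct and embryo 3 were.

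In the wild-type uteri, folinic acid against saline gave 611 probe sets at an unadjusted p under 0.05 (2.71%), fewer than the 1126 expected by chance, and the difference between the genotypes did not pass the test for any probe set. The SD of the log2 differences over genes was 0.23 in wild type and 0.39 in the mutants. The test of the difference had 0 probe sets at an adjusted p under 0.05 (0.0%; limma, smallest adjusted p 0.91) and 1104 at an unadjusted p under 0.05 (4.9%), close to the 1126 expected by chance. The 2 responses use separate control arrays, and across genes their Pearson correlation was 0.09 and their Spearman correlation 0.11. Genes are not independent replicates, and these values are descriptions.

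The genes that led the test of the difference were Gpt2, Etnk1, Wee1, Atp2b2 and Dusp14 with a lower mutant response and Cux1, Fam124a, Stk17b, Zmiz1 and Rfx3 with a higher one. Gpt2 differed by -1.44 in mutants and 0.14 in wild type, a gap of -1.58 ± 0.35 (limma). For Wee1 the values were -1.40 and 0.29, and for the transcription factor Cux1 0.92 and -0.47, a gap of 1.39 ± 0.32, though its 2 brightest further probe sets differed by 0.69 and -0.01 in mutants. By list, the wild-type medians were 0.05 for progesterone-response genes, 0.16 for oestrogen-induced genes, -0.10 for macrophage genes and -0.04 for mitosis genes. At an unadjusted p under 0.05 in the test of the difference there were 8 of 33 progesterone-response genes, 1 of 22 oestrogen-induced genes, 3 of 25 macrophage genes and 4 of 43 mitosis genes, against 4.99% of all genes.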

How the data were processed

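Uterine RNA was labelled with biotin by the one-cycle assay and hybridised to Affymetrix mouse arrays, per the labels. The authors' deposited table holds 1 linear intensity per probe set and array, computed with MAS5 per the submitters' processing notes, with no version given; every array has the same trimmed mean. MAS5 fixes that mean but not the spread of bright signals, which can shift bright genes together.

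Signals were floored at 1 and taken to log2. Probe sets below the median mean log2 signal (134) were left out, and 22519 of 45037 remained. Of these, 19116 had 1 gene symbol in the platform annotation; genes in lists were taken at their brightest probe set. limma 3.58.1 in R 4.3.3 fitted the 4 group means over 14 arrays with a variance trend; p-values were adjusted by Benjamini-Hochberg over all 22519 probe sets. The fit was tested on simulated data. Named genes are the 15 per direction with the smallest p, up to 4 per list, up to 5 per direction with the largest mean log2 difference among groups apart, and genes of folate entry. For the genotype test they are 5 per direction. The members and lists were chosen with earlier results of these data known. Promoters were read from RefSeq (GRCm38.p6). Alternatives were quantile normalization, an offset of 16, no filter, the upper 35 percent, 1 probe set per gene, no variance trend, robust variances, weighted arrays, a fit of the mutant arrays alone, the replicate number as a block, and omission of single arrays.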

Additional observations from a re-analysis of the deposited data

Results flagged for a closer look

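In the treated mutants, 5 of 175 named values had a sample far from the other 3, where chance flags about 1 in 20 groups. Wee1 was highest in treated replicate 2, at 576 against 279 to 311. Acta2, smooth muscle actin, was also highest in that uterus, at 48922 against 32656 to 34771. Srsf5 was lowest there, at 10292 against 11183 to 11241. Col18a1, the collagen that yields endostatin, was highest in treated replicate 3, at 3445 against 1681 to 1785. Dhcr7, the last enzyme of cholesterol synthesis, was lowest in treated replicate 1, at 169 against 332 to 341.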

How the results depend on the processing

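With all mutant arrays, 0 probe sets passed the adjusted threshold under quantile normalization, an offset of 16, the upper 35 percent, 1 probe set per gene, no variance trend, robust variances and mutant arrays only. Without the filter 2 passed and with array weights 103; on leaving out single mutant arrays the count ran from 0 to 662, with 662 reached without treated replicate 2. At an unadjusted p under 0.05, 2887 became 4623 without the filter and 1501 with 1 probe set per gene, which test more and fewer probe sets, and 2103 to 4387 on leaving out single arrays. The difference between genotypes stayed at 0 in each alternative run; at an unadjusted p under 0.05, 1104 became 2277 without the filter, 575 with 1 probe set per gene, 2184 with array weights, and 824 to 2087 on leaving out single arrays. The cause was not tested where the number of probe sets or samples is not itself the change. Deviations of same-numbered mutant uteri correlated at -0.15, 0.35 and 0.01, and only for number 2 was the same-numbered treated uterus the closest partner. These few values do not decide whether replicate numbers pair the samples. The fit with a replicate block gave 0 calls and 2450 at an unadjusted p under 0.05 (946 for the genotype difference). Among the 175 named values, 66 passed without treated replicate 2 and 22 with array weights. Over all probe sets it was 2.94% without that replicate and 103 of 22519 with array weights. The named values were picked mostly by small p on these same arrays, so their counts follow in part from that choice. Signals near 134 limit what dim genes such as Izumo1r can show.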

Other observations

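Genes of no list were looked through without treated replicate 2, and those named here were chosen after their values were seen. On the lower side, Galm, which interconverts galactose anomers, read 5304, 6506 and 3784 with saline and 533, 7017, 1164 and 909 with folinic acid, -1.85 with all arrays and -2.62 without treated replicate 2 (limma adjusted p = 0.25 and 0.011). Pcx, pyruvate carboxylase, gave 2420, 2199 and 1995 against 312, 1978, 786 and 368, and its groups did not overlap (-1.76). Gstm2, a glutathione transferase, was 21450, 18420 and 9320 against 2219, 19245, 4389 and 2022 (-1.81), and Enpp3, an ectonucleotidase of the luminal surface, 17173, 14485 and 8228 against 2075, 11892, 4430 and 3416 (-1.53). Npl and Acot7 differed by -2.67 and -2.01. In all 6 genes treated replicates 1 and 4 were the lowest of the 7 uteri.

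On the higher side, Saa3, serum amyloid A, measured 178, 104 and 302 with saline and 20964, 159, 6200 and 1004 with folinic acid (3.59, and 4.84 without treated replicate 2). Pigr, which carries antibodies across epithelium, was 1783, 685 and 950 against 7276, 1419, 4821 and 3382 (1.78). The complement genes Cfb and Cfi differed by 1.64 and 1.49, the copper carrier Cp by 1.69 and the lung-type collectin Sftpd by 1.57. Cd163l1, a scavenger receptor of gamma-delta T cells, gave 491, 170 and 88.9 against 2965, 409, 1560 and 846 (2.53), and Blk, a Src-family kinase of B cells and some gamma-delta T cells, 179, 70.5 and 56.6 against 1300, 174, 448 and 551 (2.44). In each gene of this paragraph treated replicate 2 lay within the saline range or below it, and the other 3 treated uteri were above it.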
